A study of Mus musculus with 2 samples.

Results

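The 8 genes described here, Pi16, Dpp4, Clec3b, Mfap5, Dpt, Ly6c1, Gsn and Cd34, are used as markers of adventitial or universal fibroblasts, and were chosen by name from 20140 genes in the tables. Earlier results of these data were known when they were chosen. All 8 had a row. They were measured in stroma-enriched cells of the submandibular salivary gland of female C57BL6/J mice aged 14 weeks. In the ligated group a metal clip had closed the ducts that drain the submandibular and sublingual glands for 14 days, and in the mock group the ducts had been located but not clipped 14 days before. Each group was 1 droplet single-cell library made from 2 glands, so the comparison asks how the stroma of a blocked gland differs from that of an open one with 1 library a side. In both groups cells bearing EpCAM, an epithelial surface protein, and Ter119, a protein of the red cell lineage, had been removed with beads before capture.

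Universal fibroblasts are found around vessels and ducts and in the connective tissue sheaths of many organs, and are regarded as a reserve from which more specialised fibroblasts can form. Pi16 encodes a secreted protein with a CAP domain and Dpp4 a surface peptidase, and the pair marks the adventitial end of this range. Clec3b encodes tetranectin, a secreted plasminogen-binding protein, Dpt encodes dermatopontin, a small matrix protein that binds decorin and collagen fibrils, and Mfap5 encodes a glycoprotein of elastic microfibrils. Cd34 is a surface sialomucin of fibroblasts, endothelial cells and blood progenitors, Ly6c1 a GPI-anchored surface protein best known from endothelial cells and monocytes, and Gsn encodes gelsolin, which severs actin filaments.

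Each value was a cluster's mean number of UMIs, the tags that mark single captured RNA molecules, on a scale of 10000 UMIs per cell. A pair of tables covered all cells in 12 clusters, and another pair covered 5 clusters of a subset that the deposited tables name by Pdgfr and Gli1, with no rule given for choosing its cells in the sources used here. Numbers of cells, worked out from the means, came to 4199 in the mock and 11406 in the ligated library. The fibroblast column of all cells, cluster 3, held 188 mock and 1149 ligated cells. Its 10 fibroblast markers (Pdgfra, Col1a1, Dcn, Lum and others) were each highest there among the 12 clusters in both libraries, and it is called fibroblast-like. Candidate UMI totals of single cells, also worked out from the means, numbered 37 in mock cluster 3 (median 12821, range 5569 to 36445). In ligated cluster 3 they numbered 232 (median 14254, range 2287 to 41033). Deeper cells are more likely to give such a value. In cluster 4 of the subset these values numbered 14 for 10 mock and 26 for 17 ligated cells. They are therefore not 1 per cell, and give only a rough guide to depth. Cluster 0 of the subset, also fibroblast-like, held 167 and 949 cells. Cluster 4 of the subset held only 10 and 17 cells, so its values rest on few cells, and the size rule was not applied to it. With 1 library per group no difference had a replicate check or a test.

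In the GRCm38 (mm10) annotation of GENCODE M21 all 8 are protein-coding genes. Pi16 lies at chr17:29317680-29330593, Clec3b at chr9:123150946-123157432, Mfap5 at chr6:122505845-122529290, Dpt at chr1:164796644-164824266, Gsn at chr2:35256380-35307892 and Cd34 at chr1:194938819-194961279, all on the plus strand. Dpp4 at chr2:62330073-62412231 and Ly6c1 at chr15:75044018-75048830 are on the minus strand. Words of 50 bases from the last 500 bases of their transcripts occurred in transcripts of other genes for Ly6c1 alone. There 29.2% of the words were shared, with Ly6c2, Ly6a or Ly6i, so reads of Ly6c1 could be confused with those of its relatives. Exons of Pi16, Dpp4 and Cd34 overlap antisense genes (AC162182.1, Gm13561 and Gm16897), and whether counting used strand is not given in the sources used here.

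RefSeq promoter windows, from 250 bases before to 50 after the start site, were matched for 6 of the 8 genes. Clec3b and Mfap5 had no entry. The windows of Pi16 (chr17:29318632-29318931, plus strand), Dpp4 (chr2:62412182-62412481, minus strand), Dpt (chr1:164796413-164796712, plus strand) and Cd34 (chr1:194938571-194938870, plus strand) are printed. The first pair was picked because its highest subset levels were in the small subset cluster 4, although Clec3b, Mfap5, Dpt and Cd34 were highest there too. The second pair was picked because it had the lowest ligated to mock ratios in cluster 3 of all cells. Build GRCm38.p6 is used, 5′ to 3′ on the gene's strand, with matches in capitals.
Pi16: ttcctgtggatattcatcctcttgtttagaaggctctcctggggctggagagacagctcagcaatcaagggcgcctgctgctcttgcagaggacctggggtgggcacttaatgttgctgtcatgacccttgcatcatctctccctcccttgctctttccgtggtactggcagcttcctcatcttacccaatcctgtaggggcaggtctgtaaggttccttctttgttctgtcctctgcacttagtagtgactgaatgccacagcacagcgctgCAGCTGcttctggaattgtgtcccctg
Dpp4: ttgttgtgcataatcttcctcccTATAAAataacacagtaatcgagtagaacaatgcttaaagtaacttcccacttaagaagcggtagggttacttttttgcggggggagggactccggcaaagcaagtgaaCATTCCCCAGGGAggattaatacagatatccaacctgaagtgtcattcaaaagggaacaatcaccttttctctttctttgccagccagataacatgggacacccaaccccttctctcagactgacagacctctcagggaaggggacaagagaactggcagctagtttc
Dpt: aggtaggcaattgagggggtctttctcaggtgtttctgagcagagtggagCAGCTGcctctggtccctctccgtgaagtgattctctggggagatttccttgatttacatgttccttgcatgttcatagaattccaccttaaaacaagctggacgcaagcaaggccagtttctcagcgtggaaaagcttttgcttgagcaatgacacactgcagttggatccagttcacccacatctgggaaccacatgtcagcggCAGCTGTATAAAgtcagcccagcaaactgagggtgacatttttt
Cd34: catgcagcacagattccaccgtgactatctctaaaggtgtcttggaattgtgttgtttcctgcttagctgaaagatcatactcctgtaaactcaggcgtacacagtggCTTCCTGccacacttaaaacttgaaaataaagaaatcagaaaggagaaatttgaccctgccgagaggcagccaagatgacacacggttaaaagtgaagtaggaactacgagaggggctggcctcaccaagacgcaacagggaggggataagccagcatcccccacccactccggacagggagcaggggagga

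Both strands were searched for the TATA box TATAAA, the E-box CAGCTG, the AP-1 motif TGANTCA, the TEAD motif CATTCC, the GC box GGGCGG, the ETS motif CAGGAAG, the EBF motif CCCNNGGGA and the SMAD element GTCTAGAC. The E-box, of the kind bound by fibroblast basic helix-loop-helix factors, occurred in windows of Pi16, Dpt, Ly6c1 and Gsn, and in 16.3% of all 32851 windows. In the Dpt window its second match, just after the start site, directly abuts TATAAA, a word found in 13.6% of windows and also in those of Dpp4 and Ly6c1. In the Dpp4 window the TEAD match overlaps a pair of EBF matches on opposite strands, words found in 14.7% and 6.56% of all windows. The Cd34 window held the ETS motif, found in 13.3% of windows, on the opposite strand, and 1 Gsn window held it too. GC boxes (35.7% of windows) were seen in Gsn windows only, and no window of the 6 genes held the AP-1 motif (7.81%) or the SMAD element (0.213%). A match is a description of letters and not a site.

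Across the 12 clusters the 8 genes fell into distinct patterns. Pi16, Clec3b, Mfap5, Dpt and Gsn were highest in fibroblast-like cluster 3 in both libraries, and Dpp4 was highest there at low levels. Ly6c1 was highest in endothelial-like clusters in both libraries. Cd34 stood at almost the same level in cluster 3 and endothelial-like cluster 0 of the mock library, and was highest in cluster 0 of the ligated library. Cluster 3 was therefore the highest cluster for 7 of the 8 genes in the mock library and for 6 in the ligated library, the change being Cd34. After subtraction of the library's mean profile the ligated count was 4, with Pi16 at 4.57 and Dpt at 1.88 in cluster 8 against 2.66 and 1.26 in cluster 3. In that cluster the subtracted share was 106%, and what was left was scaled back to 10000. With 1 library per group, neighbours in the order of levels have no spread to be compared with.

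Pi16 stood at 5.22 in mock cluster 3, and its next level there was 0.215 in cluster 4, an endothelial-like cluster in which 4 of 7 lymphatic markers were highest in both libraries. In the ligated library it stood at 2.42 in cluster 3 and 0.978 in cluster 8, and between 0.00289 and 0.219 in the other clusters. Clec3b stood at 8.71 in mock cluster 3, 0.511 in cluster 8 and at most 0.0302 elsewhere. The ligated library gave 3.80, 0.623 and at most 0.0997. Among the clusters of all cells, RNA of Clec3b was thus close to absent outside the fibroblast-like column and cluster 8. RNA of Pi16 was low in these other clusters, at most 0.215 in the mock and 0.219 in the ligated library. In the subset, Clec3b stood at 0.314 in the mock and 0.666 in the ligated cells of endothelial-like cluster 3. Pi16 stood there at 0.136 and 0.512. Subset cluster 1, with 14 mock and 435 ligated cells, gave 1.52 and 0.516 for Clec3b and 0.220 and 0.406 for Pi16. In mural-like subset cluster 2, Clec3b was listed at 0 and stood at 0.0450, and Pi16 stood at 0.0125 and 0.0195. Most acinar markers were highest in cluster 8, which held 25 mock and 264 ligated cells. In the ligated library, markers of other cell types stood in that cluster at a median of 106% of their library mean.

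Dpt stood at 8.77 in mock cluster 3 and at most 0.181 elsewhere, and at 1.15 and at most 0.414 in the ligated library. Mfap5 stood at 5.98 and at most 0.263 elsewhere in the mock library, and at 10.4 against 2.56 in cluster 8 and at most 0.383 in the remaining clusters of the ligated library. Dpp4 stood at 0.388 in mock cluster 3 and at 0.0990 in cluster 2, whose markers were those of T cells, which are known to carry this peptidase as CD26. In the ligated library these levels were 0.136 and 0.116, so the fibroblast-like and the T cell-like columns lay close together.

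Gsn was the most abundant of the 8 in cluster 3, at 197 UMIs per 10000 in the mock and 74.7 in the ligated library. Its second level was in cluster 9, whose Schwann cell markers were all highest there, at 26.6 and 13.5 over only 17 mock and 271 ligated cells. Levels in all remaining clusters ran from 0.0674 to 3.83 in the mock library and from 0.484 to 11.8 in the ligated library, with cluster 8 the highest of the latter.

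Ly6c1 was highest in the endothelial-like clusters 4 and 0, at 43.1 and 38.4 in the mock library and 43.4 and 34.3 in the ligated library, followed by the erythroid-gene cluster 10 at 16.8 and 17.0. Fibroblast-like cluster 3 ranked seventh and ninth of 12 with 2.48 and 1.45. Cd34 stood at 7.47 in cluster 3 and 7.43 in endothelial-like cluster 0 of the mock library, almost the same level. In the ligated library it stood at 1.38 and 10.9, and cluster 3 ranked below clusters 0, 4, 10 and 8. The heat map of levels by cluster shows the bright column of cluster 3 for 5 genes and the endothelial columns for Ly6c1 and Cd34.

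**Figure D1:**
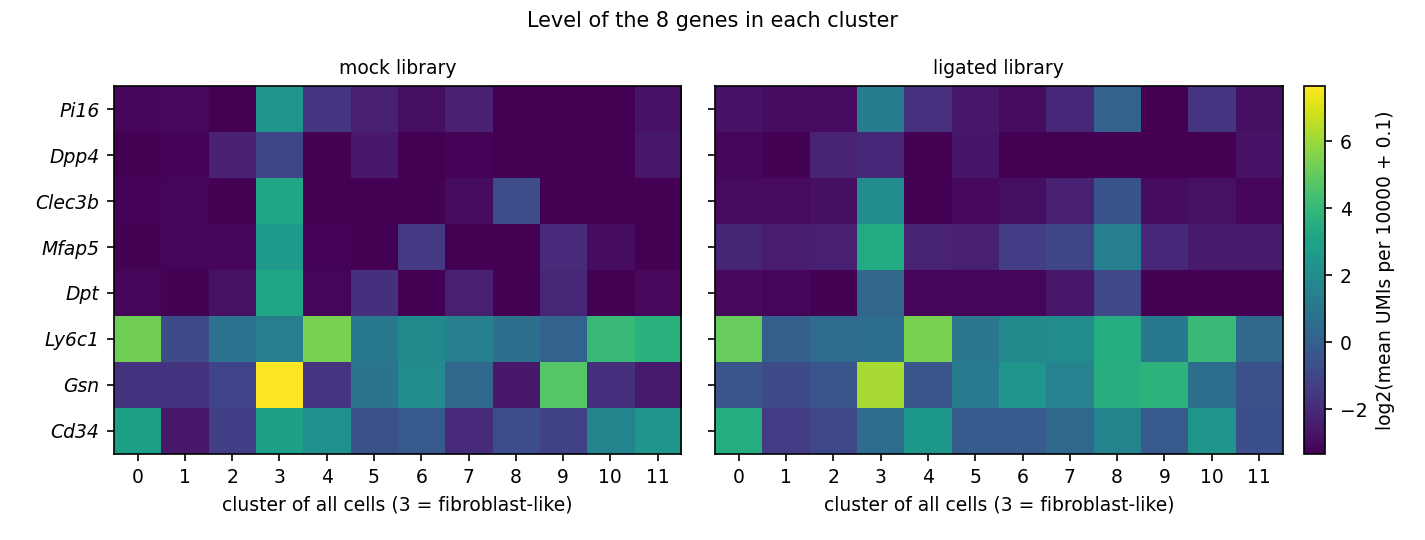
Colour gives log2(mean UMIs per 10000 + 0.1) of each of the 8 genes (rows) in each of the 12 clusters of all cells (columns), for the mock library on the left and the ligated library on the right. Gsn in cluster 3 is the brightest cell in both, at 197 and 74.7, and Cd34 in cluster 3 goes from 7.47 to 1.38.

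Weighted by cell numbers, cluster 3 held 97.2% of the summed Clec3b expression of the mock library, 95.7% of Dpt, 94.4% of Gsn, 94.0% of Mfap5, 88.9% of Pi16 and 71.6% of Dpp4. In the ligated library these shares were 90.7%, 83.6%, 84.3%, 86.5%, 79.1% and 38.4%. The share of Dpp4 held by T cell-like cluster 2 was 15.1% in the mock and 40.0% in the ligated library, over 155 and 1393 cells. For Ly6c1, cluster 3 held 0.446% and 1.20%, and endothelial-like clusters 0 and 4 together held 96.1% and 89.2%. For Cd34 these shares were 6.81% and 3.87% in cluster 3, and 89.9% and 86.1% in the endothelial-like clusters. Most of the summed expression of 6 of the 8 genes thus lay in fibroblast-like cells of the mock library, and that of Ly6c1 and Cd34 lay in endothelial-like cells.

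**Figure D2:**
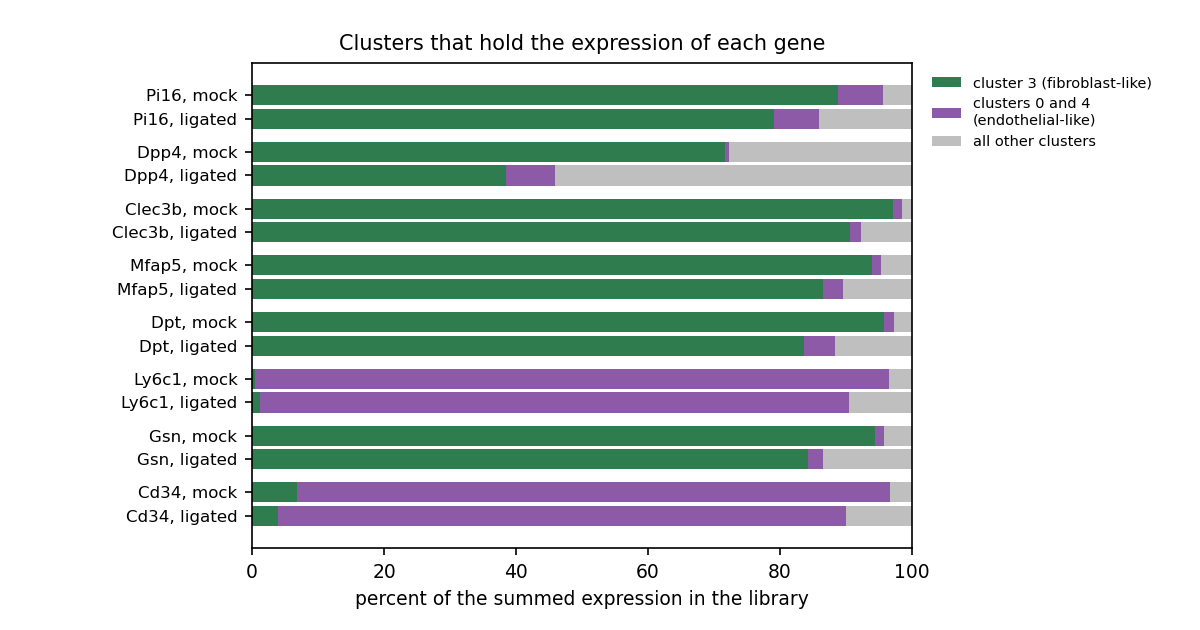
Each bar splits the summed expression of a gene in a library (percent, mean times number of cells) into fibroblast-like cluster 3, endothelial-like clusters 0 and 4, and all other clusters. Cluster 3 holds 97.2% of Clec3b in the mock library, whereas clusters 0 and 4 hold 96.1% of Ly6c1.

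Within cluster 3, 7 of the 8 genes stood lower in the ligated library and Mfap5 stood higher. The difference is log2((ligated + 0.1)/(mock + 0.1)), and a gene counts as past the size rule where its higher value is at least 0.5 and the difference at least 1 in size. The rule was passed by 5 genes, all lower in the ligated library (Pi16, Clec3b, Dpt, Gsn and Cd34), and by 0 genes in the other direction. Of the 3762 genes tested in this cluster, 5.32% were past the rule as lower and 4.47% as higher. Dpp4 was not tested because both values were under 0.5. The median difference over the 8 genes was -1.13, against -0.06 over all genes tested. The 8 genes were chosen with earlier results of these data known, so this median and count are descriptions and no test.

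Dpt, the decorin-binding matrix protein, had the largest difference. Its level was 8.77 in the mock and 1.15 in the ligated library (difference -2.83), 7.64 times higher in the mock cells. Cd34 followed with 7.47 and 1.38 (-2.36), a ratio of 5.43. Gsn stood at 197 and 74.7 (-1.40), the largest absolute difference among the 8. Clec3b stood at 8.71 and 3.80 (-1.18). Pi16 stood at 5.22 and 2.42 (-1.08), and its difference no longer passed the rule with a pseudocount of 1 (-0.86) or after subtraction of the library's mean profile (-0.996).

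Mfap5, the microfibril glycoprotein, was the exception in direction, at 5.98 in the mock and 10.4 in the ligated library (0.78), short of the size rule. Ly6c1 stood at 2.48 and 1.45 (-0.73), also short of it. Dpp4 stood at 0.388 and 0.136, a difference of -1.05 at levels under the minimum.

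Markers of other cell types were present at low levels in cluster 3, and more so in the ligated library. They stood at a median of 3.79% of their library mean in the mock cells (55 markers) and 10.4% in the ligated cells (62 markers). All 11 endothelial markers were above 0 in both, summing to 5.51 and 6.16, and the 9 macrophage and monocyte markers summed to 0.206 (Adgre1, Cd68 and Fcgr1 listed at 0) and 2.18. Acinar markers summed to 6.46 in the mock cells (Aqp5, Smgc, Muc19 and Lpo listed at 0) and 0.626 in the ligated cells. At the same shares of its library mean, Ly6c1 would stand at 0.944 and 1.27, against measured levels of 2.48 and 1.45, so the ligated level lies close to that value. Subtraction left 1.60 and 0.207 and moved the difference from -0.73 to -2.47, past the rule. For Cd34 the corresponding values were 0.186 and 0.372, against 7.47 and 1.38, and for the other 6 genes they were at most 0.926, for ligated Gsn at 74.7. The part of such RNA in the differences of Ly6c1 was not tested.

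In fibroblast-like cluster 0 of the subset, 6 of the 8 genes were past the rule. Its cells are largely those of cluster 3 and are no repeat of them: of genes whose sums were equal (tolerance 1e-06) to those of exactly 1 cluster of all cells, 99.8% in the mock and 98.2% in the ligated library traced to cluster 3. Clec3b, Dpt, Ly6c1, Gsn and Cd34 were lower and Mfap5 was higher in the ligated library, while 5.31% of 3749 genes were past the rule as lower and 4.75% as higher. Dpt stood at 7.85 in the mock and 0.583 in the ligated cells (-3.54), a ratio of 13.5. Cd34 stood at 6.96 and 1.03 (-2.64), Gsn at 204 and 78.8 (-1.37) and Clec3b at 8.11 and 3.50 (-1.19). Mfap5 stood at 4.66 and 10.4 (1.15).

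Pi16 behaved otherwise in this column, with 1.84 in the mock and 2.13 in the ligated cells (0.20). Dpp4 was near the floor, at 0.0774 and 0.0410. Ly6c1 stood at 1.32 and 0.557 (-1.11), and the ligated value lies below the 0.805 that the share of other cell types' markers would give. With a pseudocount of 1, or a higher value of at least 2, Ly6c1 was not past the rule (-0.57 with the former).

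Pi16 and Dpp4 stood at their highest levels of the subset's fibroblast-like columns in the small cluster 4. All 10 fibroblast markers were above 0 there in both libraries, although Pdgfra stood at only 2.98 in the mock and 2.63 in the ligated cells, against 11.5 and 8.90 in cluster 0. Genes whose summed value was equal, within the same tolerance, in cluster 4 and in exactly 1 cluster of all cells numbered 105 in the mock and 44 in the ligated library, and all of them traced to cluster 3. Pi16 stood at 59.1 in the mock and 27.5 in the ligated cells of cluster 4, which is 32.1 and 12.9 times its level in cluster 0. Dpp4 stood at 5.73 and 5.91, or 74.0 and 144 times its level in cluster 0. These genes may have shaped the clustering, so the contrast of clusters describes the clusters and is no test.

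The remaining genes were also higher in cluster 4 than in cluster 0 in both libraries, except Gsn. Dpt stood at 24.2 in the mock and 40.2 in the ligated cells of cluster 4, Clec3b at 20.1 and 31.9, and Mfap5 at 30.0 and 32.0. Cd34 stood at 13.4 and 13.3, Ly6c1 at 11.6 and 14.5, and Gsn at 123 and 61.1. These levels rest on 10 mock and 17 ligated cells. The ratio of cluster 4 to cluster 0 was 3.09 in the mock and 68.9 in the ligated library for Dpt, and 1.93 and 12.9 for Cd34. Ly6c1 stood above the 0.686 that the share of other cell types' markers would give in the ligated cells of cluster 4. In the mock cells only 17 of 55 such markers were above 0. The level there was therefore 0, which any measured value would exceed, so the mock comparison cannot decide anything. Of the 11 endothelial markers, 4 were above 0 in the mock and 8 in the ligated cells of cluster 4, summing to 2.48 and 3.65, against 2.50 and 2.83 in cluster 0. Cdh5, Tie1 and Vwf were listed at 0 in both libraries. The part of endothelial RNA in the Ly6c1 of cluster 4 was not tested.

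**Figure D3:**
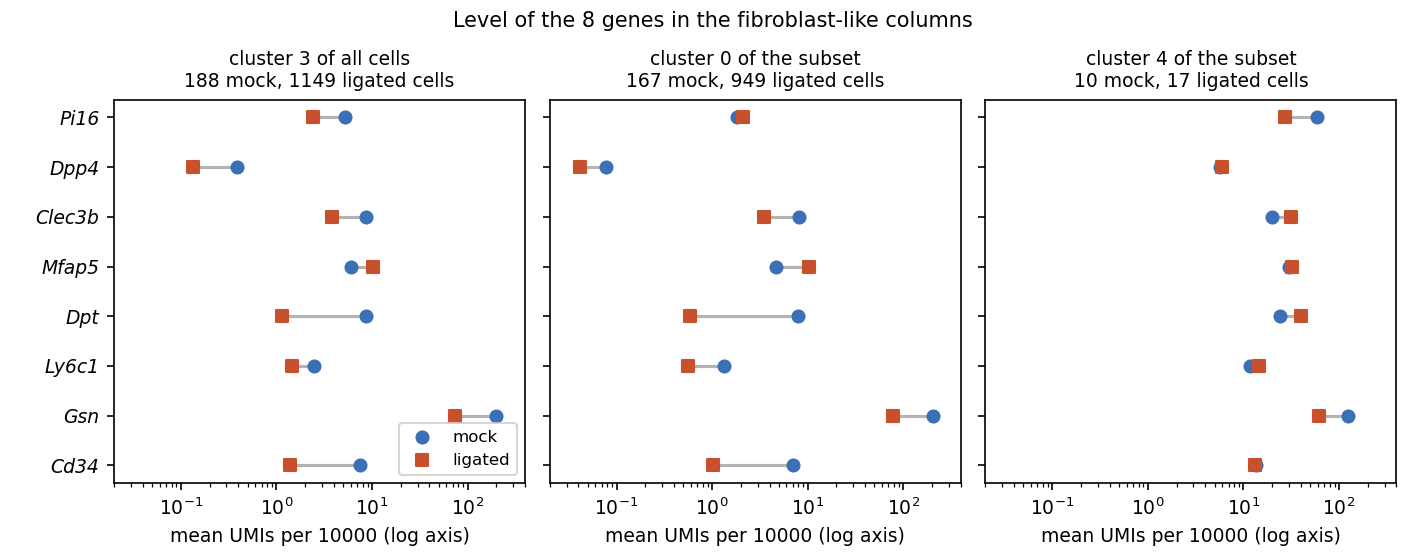
Mean UMIs per 10000 (log axis) of the 8 genes in the mock (circles) and ligated (squares) library, in cluster 3 of all cells and in clusters 0 and 4 of the subset, with 1 library per point and no error bar. Dpt and Cd34 are far apart in the first 2 panels (Dpt 7.85 and 0.583 in cluster 0), whereas cluster 4 shows 24.2 and 40.2 for Dpt and 13.4 and 13.3 for Cd34.

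Clusters 0 and 4 of the subset together held 177 mock and 966 ligated cells, of which cluster 4 made up 5.65% in the mock (exact Clopper-Pearson 95% interval 2.74 to 10.1) and 1.76% in the ligated library (1.03 to 2.80). The intervals cover counting error only, and since the 8 genes differ between the clusters these sizes are given as weights and not as a result. In the mock library cluster 4 held 65.8% of the summed Pi16 of both clusters, 81.6% of Dpp4, 34.5% of Ly6c1 and 27.8% of Mfap5, but 15.6% of Dpt, 12.9% of Clec3b, 10.4% of Cd34 and 3.50% of Gsn. In the ligated library it held 18.8% of Pi16, 72.1% of Dpp4, 31.8% of Ly6c1, 5.20% of Mfap5, 55.3% of Dpt, 14.0% of Clec3b, 18.8% of Cd34 and 1.37% of Gsn. The share of Pi16 in the small cluster was thus lower in the ligated library, and that of Dpt was higher.

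**Figure D4:**
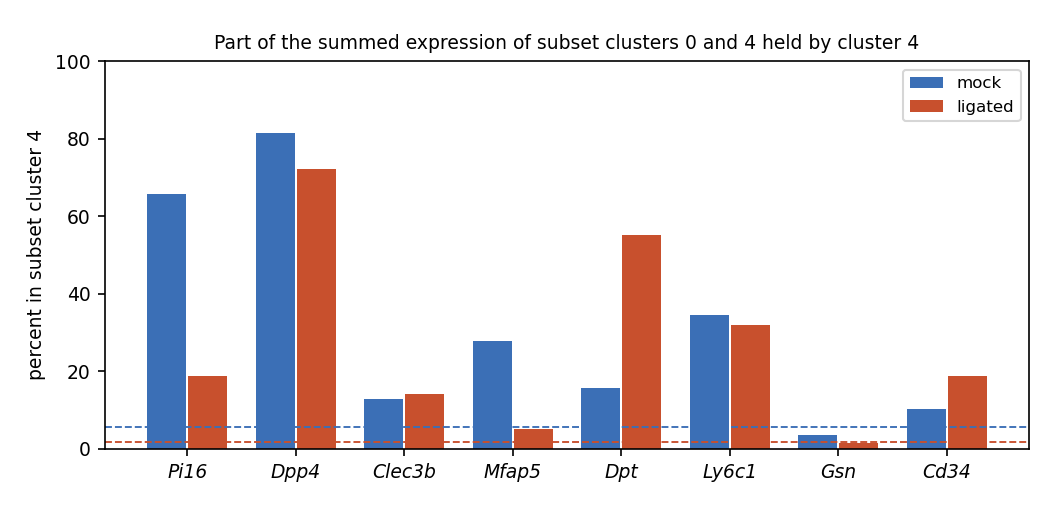
Bars give the percent of the summed expression of subset clusters 0 and 4 that cluster 4 holds, for each gene in the mock and ligated library, and dashed lines give its percent of the cells (5.65% mock and 1.76% ligated). Dpp4 lies at 81.6% and 72.1%, Pi16 at 65.8% and 18.8%, and Dpt at 15.6% and 55.3%.

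With both clusters pooled, Pi16 stood at 5.07 in the mock and 2.58 in the ligated cells (-0.95), and at the mock mix of clusters the ligated level was 3.57 (-0.50). For Dpp4 the difference went from -1.02 to -0.07 at the mock mix, and for Clec3b from -1.12 to -0.77. Dpt (-2.68 and -1.60), Cd34 (-2.46 and -2.02) and Gsn (-1.34 and -1.35) remained past the size rule in both reckonings. Ly6c1 was past the rule when pooled (-1.15) but not at the mock mix (-0.47), and Mfap5 was short of it in both (0.82 and 0.92).

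The other adventitial fibroblast genes were also mostly lower in the ligated library. Of 19 such genes, 18 had a mean of both values of at least 0.05 in cluster 3, and all 18 stood lower in the ligated library, with a median of -0.96 against -0.06 over all genes tested. Past the size rule were 7 (Sema3c, Cd55, Tnxb, Pcolce2, Ackr3, Emilin2 and Scara5), all lower, of 14 with a value of at least 0.5. Over all genes tested in cluster 3, 5.32% were past it as lower. This list too was chosen with earlier results of these data known, so its median and counts are descriptions and no test. Tnxb, which encodes the matrix protein tenascin-X, stood at 3.44 in the mock and 0.744 in the ligated cells (-2.07). Pcolce2, an enhancer of procollagen processing, stood at 0.807 and 0.154, and the semaphorin gene Sema3c at 1.09 and 0.256. Igfbp6, which encodes an IGF-binding protein, differed little, at 6.49 and 6.16. In cluster 0 of the subset 5 of them were past the rule, all lower, and the median was -0.90. There 14 stood lower and 2 higher, Anxa3 (0.216 and 0.280) and Igfbp6 (5.07 and 6.13). At the mock mix of subset clusters 0 and 4, only Tnxb (-1.29) and Scara5 (-1.18) of those 7 genes remained past the rule. Sema3c (-0.55), Cd55 (-0.84), Pcolce2 (-0.48), Ackr3 (-0.54) and Emilin2 (-0.98) fell short of it. Anxa3 (0.24), Igfbp6 (0.22), Opcml (0.24) and Procr (0.09) stood higher in the ligated library at that mix, and the rest of the list stood lower. The part of the mix in these differences was not tested.

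In the small cluster 4 all 19 of these genes stood higher than in cluster 0 in the mock library and 18 did in the ligated library, the exception being Il33. The median difference of cluster 4 from cluster 0 was 2.61 in the mock and 3.99 in the ligated library, against -0.06 and -0.13 over all genes with a value of at least 0.5. Sema3c stood at 10.6 and 11.1 in cluster 4, and Pcolce2 at 7.99 and 8.29.

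Genes of parenchymal fibroblasts, which lie within the tissue, gave a different picture. In cluster 3 their median difference was -0.10 with 1 of 11 genes past the rule (Gdf10, 0.966 and 0.303), and Col15a1, the basement membrane collagen after which such cells are often named, stood at 16.7 and 9.76 (-0.77). The 11 genes were not higher in cluster 4 than in cluster 0 in both libraries in any case, and Col15a1 was listed at 0 in mock and stood at 0.0831 in ligated cells of cluster 4. General fibroblast genes had a median of 0.04 with 1 of 12 past the rule, the gelatinase gene Mmp2 at 12.4 and 5.82. Among all genes tested in cluster 3, 5.32% were past the rule as lower, the direction of Gdf10 and Mmp2. Col1a1 stood at 24.5 and 34.2, Col3a1 at 48.6 and 54.9, and Dcn, the partner of dermatopontin, at 158 and 96.7 (-0.70).

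Genes of activated fibroblasts had a median of 1.28 in cluster 3. Of the 16 genes, 13 stood higher in the ligated library and 3 lower, Adam12 (-1.05), Fap (-0.34) and Cthrc1 (-0.27). Adam12 and Cthrc1 were under 0.5 in both libraries. A value of at least 0.5 was reached by 7 of the 16, and 6 of these were past the rule, all higher in the ligated library. Over all genes tested in this cluster, 4.47% were past it as higher. The lists were chosen with earlier results of these data known, so this median and count are descriptions and no test. Spp1, which encodes osteopontin, stood at 1.08 in the mock and 28.8 in the ligated cells (4.61), Thbs4, a thrombospondin, at 0.261 and 9.83 (4.78), and Col8a1 at 0.362 and 4.05 (3.17). Postn, Timp1 and Runx1 were the other 3. In the ligated cells of the small cluster 4, 5 of these 6 genes stood below their level in cluster 0. Spp1 stood at 0.254 against 30.6 there, Thbs4 at 0.0943 against 10.1, Timp1 at 0.554 against 6.96, Runx1 at 0.193 against 1.07, and Col8a1 was listed at 0 against 4.40. Postn, at 10.6 against 4.72, was the exception. Of all 16 genes of the list, 3 stood higher in cluster 4 than in cluster 0 in each library.

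**Figure D5:**
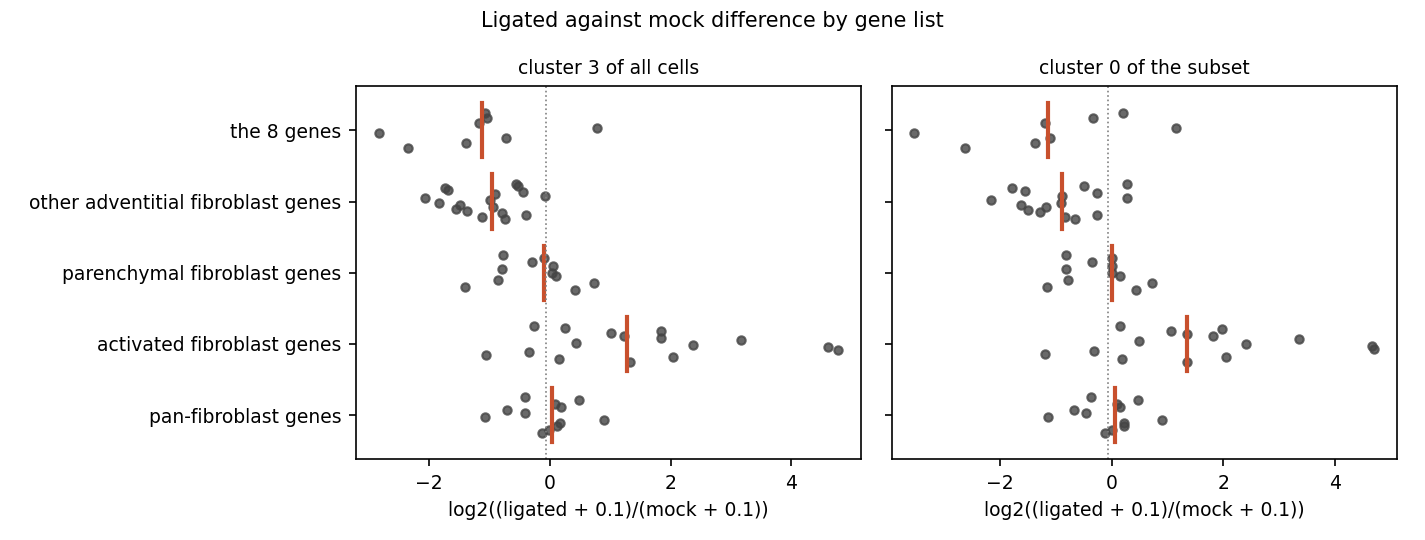
Each point is the difference log2((ligated + 0.1)/(mock + 0.1)) of a gene, in 5 lists, in cluster 3 of all cells and cluster 0 of the subset, with red bars at list medians and a dotted line at the median of all genes tested. The 8 genes and the other adventitial genes lie mostly to the left (medians -1.13 and -0.96 in cluster 3), and activated fibroblast genes mostly to the right (1.28). The lists were chosen with earlier results of these data known.

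Partners of Mfap5 in elastic fibres and microfibrils did not share 1 direction. In cluster 3, 4 of 18 were past the rule as lower (Fbln2, Efemp1, Ltbp4 and Emilin2) and 3 as higher (Fbn2, Ltbp2 and Lox), with a median of 0.13. Among all genes tested in this cluster, 5.32% were past it as lower and 4.47% as higher. Emilin2 and Fbn1 are also in the list of other adventitial fibroblast genes. Fibrillin-1, Fbn1, stood at 6.71 and 4.89, and fibrillin-2, Fbn2, at 0.169 and 1.15 (2.22). Ltbp2, which binds fibrillin, stood at 0.0570 and 1.48 (3.33). The crosslinking enzyme gene Lox stood at 1.41 and 3.39 (1.21), and Mfap4, a neighbour of elastic fibres, at 2.97 and 5.69 (0.92).

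Relatives of the other members were measured as well. Among CAP domain genes, Crispld1 stood at 0.931 and 2.60 (1.39) and Glipr2 at 0.638 and 0.187 (-1.36). Of 3 with a value of at least 0.5, these 2 were past the rule. The shares of all genes tested in cluster 3 were 5.32% as lower and 4.47% as higher. Of 8 relatives of Dpp4 only 2 reached that minimum, and neither was past it. Fap, its closest relative and a marker of activated fibroblasts, stood at 1.75 and 1.36. Of 7 gelsolin relatives 3 reached the minimum and none of these was past it, and Capg stood at 1.45 and 2.53. Of 7 Ly6 genes 2 reached the minimum and neither was past it. Ly6a, the Sca-1 gene, stood at 12.7 and 8.74 and Ly6e at 8.35 and 9.25, while Ly6c2, which shares sequence with Ly6c1, stood at 0.00803 and 0.0756. Podxl and Podxl2, relatives of Cd34, were under 0.5 in both libraries.

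Outside fibroblast-like cells most of the 8 genes were too low to be tested, with 1 to 3 of them reaching 0.5 in each of the other 8 compared clusters of all cells. Among these, Gsn was past it as higher in the ligated library in clusters 0, 4, 7 and 10, and Cd34 in cluster 7, with 3 genes tested in each, where 3.92%, 3.29%, 14.8% and 23.0% of genes tested were past the rule as higher. None of the 1, 2, 3 and 3 genes tested in clusters 1, 2, 5 and 6 was past it, where 4.56%, 5.34%, 8.48% and 9.41% of genes were past it in either direction. Gsn stood at 0.203 in the mock and 0.644 in the ligated cells of endothelial-like cluster 0, and the shares of other cell types' markers would give 0.294 and 0.822. Subtraction left 0 in both. In endothelial-like cluster 4 of all cells these values were 0.223 and 0.650, against 0.200 and 0.910. Ly6c1 and Cd34 were short of the size rule in the endothelial-like cells, with Cd34 at 7.43 and 10.9 (0.55) in cluster 0 and 4.37 and 5.73 (0.38) in cluster 4, and Ly6c1 differing by -0.16 and 0.01.

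In mural-like cluster 2 of the subset neither of the 2 genes tested was past the rule (8.51% of genes in either direction). In endothelial-like cluster 3 of the subset Pi16 (0.136 and 0.512) and Mfap5 (0.186 and 2.87) were past it as higher, of 6 tested, where 6.29% of genes were. Gsn stood at 12.7 and 16.9 in this cluster, against 0.203 and 0.644 in endothelial-like cluster 0 of all cells.

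The genes whose levels over 24 values (12 clusters in 2 libraries, on the log2(value + 0.1) scale) were most like each member differed between members, among 7766 genes searched. For Clec3b they were Inmt (r = 0.99), Cdh11 (0.98) and Medag (0.94), for Pi16 Sema3a (0.95), Serpinf1 (0.95) and Pdgfra (0.94), and for Mfap5 Mfap4, Cpxm1 and Epha3 (0.96 each). For Dpt they were Prg4 (0.95), Fgf10 (0.94) and P2ry1 (0.94), of which Fgf10, a growth factor that acts on salivary epithelium, stood at 4.24 in the mock and 0.662 in the ligated cells of cluster 3 (-2.51). Prg4, which encodes lubricin, stood at 0.541 and 0.106. For Gsn they were Col6a3, Col3a1 and Col1a2 (0.95 each), and for Dpp4 Plac8, Ifi205 and Cdon (0.83, 0.82 and 0.82). For Ly6c1 they were the endothelial genes Cyyr1, Tek and Cdh5 (0.98, 0.97 and 0.97), and for Cd34 Ramp2, Gja1 and Calcrl (0.95, 0.94 and 0.93). The 24 values share 2 libraries and the clusters, so these correlations are descriptions without a p-value.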

How the data were processed

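Droplet single-cell libraries, 1 ligated and 1 mock, were measured, and the authors deposited 4 tables of cluster means, which are linear means of UMIs per 10000 (a unit other than counts or CPM). This reading rests on the values: each column sums to 10000, and each joint value is the cell-weighted mean of the split values (largest residual 1.49e-07). The submitters' processing notes name Cell Ranger 6.0.1, Seurat and mm10; cell filters, doublet handling and clustering are not given in the sources used here. No cell barcodes were used here.

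In the tables split by library, 21 gene symbols had turned into dates, and these were restored from the order of genes in the joint tables. Cell numbers came from the weight that joins the tables (tolerance 2e-09, whole UMI totals within 1e-05), a method tested on simulated data. The simulated clusters held more cells than the smallest clusters here, such as cluster 4 of the subset, so the method was not tested at those sizes. No column lacked a sample. Differences used a pseudocount of 0.1 and were formed for clusters with at least 50 cells per library. The library's mean profile was subtracted, as an alternative, at the median share that markers of other cell types (library mean at least 0.1) had in the column. List medians took genes with a mean of both values of at least 0.05. A cluster took a cell type's name from marker lists. The members and lists were chosen with earlier results of these data known. Named genes are the members, genes of the lists and, for each member, the 3 genes with the most similar levels. Python 3.11.15 and pandas 2.3.3 were used. Other settings of pseudocount, thresholds, centring and gene set were tried.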

Additional observations from a re-analysis of the deposited data

Results flagged for a closer look

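Gsn was past the size rule in opposite directions in different clusters of all cells. It was lower in the ligated library in fibroblast-like cluster 3 (-1.40) and higher in endothelial-like clusters 0 (1.30) and 4 (1.22), in ductal-marker cluster 7 (1.15) and in erythroid-gene cluster 10 (2.48). The median difference over all genes tested was 0.565 in cluster 10, against 0.0125, -0.00349 and -0.0944 in clusters 0, 4 and 7. With 1 library per group the difference between clusters was not tested. Levels in the 4 clusters with higher values were at most 2.80, against 74.7 in ligated cluster 3. Subtraction of the library's mean profile left no Gsn in either library of cluster 0. In cluster 4 it left 0.0232 and 0, in cluster 7 it left 0.458 and 1.20, and the values for cluster 10 were 0.141 and 0.312. What was left in clusters 0, 4 and 10 was under the minimum of 0.5.

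Cd34 was lower in cluster 3 (-2.36) and higher in ductal-marker cluster 7 (2.32), where it stood at 0.155 in the mock and 1.18 in the ligated cells. This difference between clusters was not tested either. Subtraction left 0 and 0.549 in cluster 7.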

How the results depend on the processing

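No paired analysis was possible because each group holds 1 library, and no replicate could be left out. In cluster 3 of all cells, 5 members past the size rule became 2 when a difference of at least 2 was required, and in subset cluster 0 6 became 2; under the other settings fixed at the start both counts stayed within 1.5 times. Taking subset clusters 0 and 4 together at the mock mix, a setting added after the data were seen, left 3. Of 72 member differences in cluster 3, 63 kept direction and side of the rule, 5 no longer passed and 4 newly passed. Of 88 in subset cluster 0, 76 kept both and 10 no longer passed. The remaining 2, both of Pi16 with clusters 0 and 4 together, went from 0.20 to -0.95 and -0.50. Settings that changed only a threshold left every difference as it was, so they could not change its direction. After subtraction of the mean profile, cluster 3 held, in percent of summed expression, 91.5 (Pi16), 72.2 (Dpp4), 99.2 (Clec3b), 95.8 (Mfap5), 98.1 (Dpt), 0.288 (Ly6c1), 96.8 (Gsn) and 6.88 (Cd34) in the mock library and 68.2 (Pi16), 40.6 (Dpp4), 93.5 (Clec3b), 84.1 (Mfap5), 72.8 (Dpt), 0.176 (Ly6c1), 89.8 (Gsn) and 3.24 (Cd34) in the ligated library. With list genes of a mean of at least 0.5, the median of activated genes was 2.37 in cluster 3 and 2.41 in subset cluster 0, and that of other adventitial genes in cluster 3 was -0.95. Centred on the median over genes, the medians in cluster 3 and subset cluster 0 were -0.90 and -0.84 (other adventitial), -0.034 and 0.068 (parenchymal), 1.34 and 1.42 (activated), 0.10 and 0.12 (pan-fibroblast), and 0.19 and 0.26 (elastic fibre). The ligated shares include cluster 8, where the subtracted share was 106%. The cause of these shifts was not tested. Dpp4 had the lowest level of the 8 genes in cluster 3, at 0.388 and 0.136, and the depth of single cells is known only in part.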
